A study of Caenorhabditis elegans with 8 samples.

Results

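RNA interference (RNAi) and small RNA pathway genes were followed in worms given gene-specific or empty-vector RNAi. The set holds 33 genes, chosen by name from the count table: the genes for uptake of double-stranded RNA, the Dicer complex, RNA-dependent RNA polymerases, Argonaute proteins, mutator proteins and nuclear RNAi. All 33 were found by an exact match of the gene name among the 46739 genes of the table, and all 33 were among the 14772 genes with enough counts to be tested. The worms were Caenorhabditis elegans hermaphrodites of strain N2, the wild type, sequenced whole, and gave 3 libraries for RNAi against vab-3a, 3 libraries for RNAi against vab-3c and 2 control libraries for L4440, the empty vector. Synchronized animals entered treatment as young adults and were collected at day 5 of adulthood, so every group, the control included, carried an RNAi vector. L4440 is the plasmid commonly used to make double-stranded RNA in bacteria that worms eat, but the labels do not state how the RNA was delivered. The labels carry no mutation, transgene or driver, and they do not say whether libraries of a group came from separate cultures. P-values therefore measure only the spread between these samples, which may be technical.

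In the worm, double-stranded RNA is taken up, cut by Dicer into primary small interfering RNAs (siRNAs) and loaded on a primary Argonaute, a protein that uses a small RNA to find its target. RNA-dependent RNA polymerases then copy the target into many secondary siRNAs, which secondary Argonautes carry in the cytoplasm or into the nucleus. MicroRNAs, piRNAs and endogenous siRNAs run through related proteins, many of which are abundant in the germline, and the classes are known to share Dicer and amplification factors.

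Column totals ran from 30289733 to 43364047 counts per library. On the first principal component of all tested genes, which held 54.4% of the variance, libraries 2 and 3 of vab-3a RNAi had scores of 64.6 and 54.7 and stood apart from the other 6, whose scores ran from -40.0 to 1.06. The targeted gene vab-3 (WBGene00006870), a Pax6-type transcription factor gene (WBcel235, chromosome X, 10499890 to 10519580, forward strand), was not lower under either treatment. Its level was 4.43, 5.52 and 4.38 CPM (read counts normalised to the scaled library size) in the libraries labelled vab-3a, 4.08, 2.04 and 4.84 CPM in those labelled vab-3c, and 2.23 and 2.12 CPM in the controls. The vab-3a libraries differed from control by 1.13 ± 0.34 (log2, SE; edgeR, adjusted p = 0.121) and the vab-3c libraries by 0.74 ± 0.33 (edgeR, adjusted p = 0.700). The counts are per gene, so isoforms and reads from supplied RNA cannot be separated. Because of that mismatch the libraries are called A-labelled and C-labelled below, and a direction is one between libraries so labelled.

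None of the 33 pathway genes differed past the threshold of an adjusted p of 0.05 (edgeR, Benjamini-Hochberg over 14772 genes) between RNAi and control libraries or between the RNAi groups. With the replicate number as a block, 6 members passed between the RNAi groups (sid-2, rde-4, rrf-1, mut-7, alg-1 and hrde-1), beside 1702 of all genes (11.5%). That block may be too favourable, since it was taken up on the data alone. The blocked p-values of these members stand beside the unblocked ones below. The differences were small in all 33 genes: every fitted log2 difference lay under 0.5 in size, from -0.28 (mut-7) to 0.33 (alg-2) for A-labelled minus control and from -0.13 (mut-14) to 0.39 (sid-2) for C-labelled minus control. The members as a set took 0.672 to 0.750% of the counts of a library. Their summed level was 6954, 7028 and 7064 CPM in the A-labelled libraries, 7294, 7395 and 7484 CPM in the C-labelled libraries, and 7246 and 7458 CPM in the controls, so all 3 A-labelled libraries lay below all others. That sum is weighted to abundant members, and most of the gap between A-labelled and control libraries lay in hrde-1 and prg-1. In whole worms, fewer cells of a type and less RNA per cell cannot be told apart. The median deviation of the members from the control mean was -0.07, -0.03 and -0.06 (log2) in the A-labelled libraries, -0.01, 0.01 and 0.01 in the C-labelled libraries, and -0.01 and 0.01 in the controls.

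**Figure D1:**
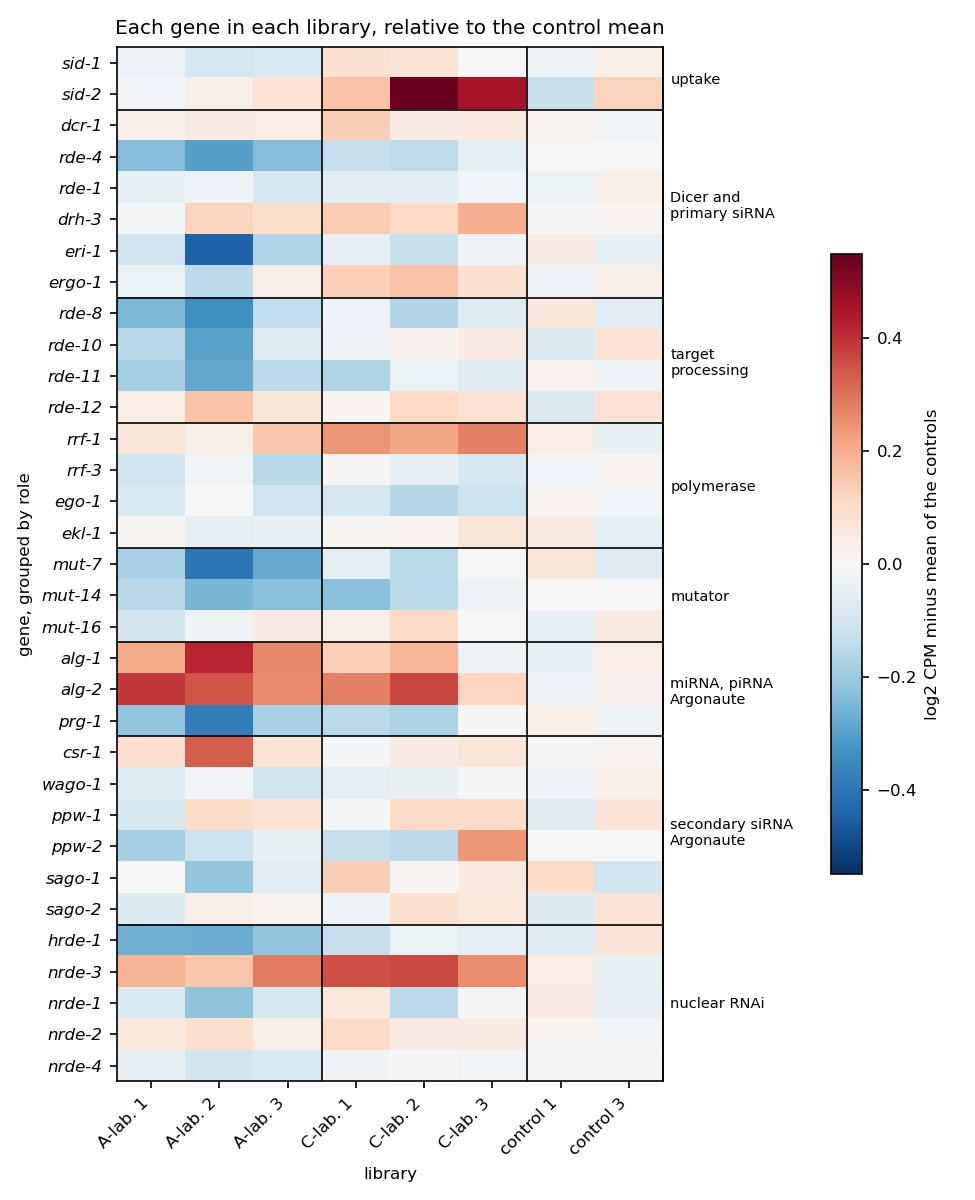
Log2 CPM of each of the 33 genes (rows, grouped by role) in each of the 8 libraries (columns, A-lab. for A-labelled and C-lab. for C-labelled) minus the mean of the 2 control libraries. Columns of the A-labelled libraries are mostly blue, with 23, 21 and 19 of 33 genes below the control mean. In all 3 of them alg-1, alg-2, nrde-3, dcr-1, rde-12, rrf-1, csr-1 and nrde-2 lie above that mean, some only slightly.

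Members also varied little between libraries whatever their group. The coefficient of variation over the 8 libraries ran from 2.61 to 16.6% with a median of 6.95%, against a median of 14.5% over all tested genes. The highest library was less than 1.5 times the lowest in 32 of 33 genes, and the exception was sid-2 at 1.58. Depth is part of that comparison, since every member was well counted, with 393 (sid-2, A-labelled library 2) to 47669 counts (hrde-1, C-labelled library 2) in a library.

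Of the 2 uptake genes, sid-2 stood highest in every C-labelled library, and sid-1 overlapped the controls there. For sid-2, which encodes the gut protein that takes up double-stranded RNA from food, the level was 13.1, 13.6 and 14.03 CPM in the A-labelled libraries, 14.8, 19.3 and 18.2 CPM in the C-labelled libraries, and 12.2 and 14.4 CPM in the controls. All 3 C-labelled libraries lay above both other groups, with C-labelled library 1 only just above. Its log2 difference was 0.39 ± 0.14 (95% interval 0.08 to 0.70) for C-labelled minus control (edgeR, adjusted p = 0.564) and -0.36 ± 0.12 for A-labelled minus C-labelled (edgeR, adjusted p = 0.188 without and 0.0394 with the replicate number as a block). For sid-1, the channel that lets the RNA into cells, values were 98.1, 93.8 and 94.6 CPM in the A-labelled libraries, 106, 106 and 100.3 CPM in the C-labelled libraries, and 98.1 and 103 CPM in the controls. Here the A-labelled libraries lay below the C-labelled ones without overlap, at a log2 difference of -0.12 ± 0.05 (edgeR, adjusted p = 0.208). C-labelled and control libraries overlapped, at 0.05 ± 0.05 (edgeR, adjusted p = 0.858).

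Among the Dicer complex and primary siRNA genes, rde-4 stood lowest in the A-labelled libraries and dcr-1 lay within 0.08 (log2) of control in both groups. The gene rde-4 (WBGene00004326, chromosome III, 10217302 to 10218646, reverse strand, WBcel235) encodes the double-stranded-RNA-binding partner of Dicer. Its level was 133, 127 and 133 CPM in the A-labelled libraries, 143, 142 and 151 CPM in the C-labelled libraries, and 156 and 157 CPM in the controls, so that the 3 groups did not overlap. Its log2 difference was -0.26 ± 0.05 for A-labelled minus control, a change of -16.4% (edgeR, adjusted p = 0.121), -0.11 ± 0.05 for C-labelled minus control (edgeR, adjusted p = 0.687) and -0.15 ± 0.04 for A-labelled minus C-labelled (edgeR, adjusted p = 0.144 without and 0.0347 with the replicate number as a block). The gene dcr-1, Dicer itself, had 231, 233 and 232 CPM in the A-labelled libraries, 248, 233 and 234.8 CPM in the C-labelled libraries, and 229 and 224 CPM in the controls. Its 95% interval ran from -0.07 to 0.14 (log2) for A-labelled minus control and from -0.03 to 0.18 for C-labelled minus control. The primary Argonaute of exogenous RNAi, rde-1, averaged 111 ± 2.58 CPM in the A-labelled libraries (SD, n = 3), 112 ± 2.02 CPM in the C-labelled libraries (n = 3) and 115 ± 4.14 CPM in the controls (n = 2), with groups that overlapped throughout.

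In the same class, drh-3, a Dicer-related helicase that works with the polymerases, had 155, 169 and 166 CPM in the A-labelled libraries, 172, 168 and 179 CPM in the C-labelled libraries, and 155 and 157 CPM in the controls. The C-labelled libraries stood above both controls, at a log2 difference of 0.15 ± 0.05 (edgeR, adjusted p = 0.564). The Argonaute gene ergo-1, which binds endogenous siRNAs in oocytes and embryos, had 579, 537 and 609.9 CPM in the A-labelled libraries, 651, 662 and 630.3 CPM in the C-labelled libraries, and 582 and 607 CPM in the controls. It was higher in every C-labelled library than in any other, with -0.17 ± 0.06 for A-labelled minus C-labelled (edgeR, adjusted p = 0.183). For eri-1, an exonuclease gene whose loss is known to enhance RNAi, the level was 78.9, 62.5 and 76.0 CPM in the A-labelled libraries, 82.1, 78.2 and 84.1 CPM in the C-labelled libraries, and 88.0 and 82.5 CPM in the controls. Library 2 of the A-labelled group was the lowest of the 8, and the log2 difference from control was -0.23 ± 0.09 (edgeR, adjusted p = 0.167).

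Of the 4 target-processing genes, 3 lay lower in the A-labelled libraries than in control, and none of the 4 passed the test in any comparison. The complex of rde-10 and rde-11 promotes secondary siRNA production. For rde-11, values of 56.0, 52.7 and 57.9 CPM in the A-labelled libraries and 57.1, 62.4 and 61.0 CPM in the C-labelled libraries stood below 64.8 and 63.1 CPM in the controls, with a log2 difference from control of -0.20 ± 0.06 in the A-labelled group and -0.09 ± 0.06 in the C-labelled group. Its partner rde-10 had 51.8, 47.0 and 54.9 CPM in the A-labelled libraries, 56.9, 58.6 and 59.5 CPM in the C-labelled libraries, and 54.7 and 60.8 CPM in the controls, so A-labelled and control libraries overlapped slightly. The ribonuclease gene rde-8 averaged 83.6 ± 5.89 CPM in the A-labelled libraries, 92.7 ± 4.17 CPM in the C-labelled libraries and 98.7 ± 6.03 CPM in the controls. The helicase gene rde-12 lay the other way, at 255 ± 10.96 CPM in the A-labelled libraries, 252 ± 8.79 CPM in the C-labelled libraries and 241 ± 18.3 CPM in the controls, with all groups overlapping.

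The polymerases that copy targets into secondary siRNAs differed among themselves. The gene rrf-1, the polymerase known for exogenous RNAi in somatic tissue, had 111, 108 and 117 CPM in the A-labelled libraries, 125, 122 and 128 CPM in the C-labelled libraries, and 109 and 103 CPM in the controls. All 3 C-labelled libraries stood above all 5 others. The log2 difference was 0.24 ± 0.05 for C-labelled minus control, a change of 18.4% (edgeR, adjusted p = 0.324), and -0.16 ± 0.05 for A-labelled minus C-labelled (edgeR, adjusted p = 0.164 without and 0.0447 with the replicate number as a block). The germline polymerase gene ego-1 lay on the other side, with 173, 183 and 169.7 CPM in the A-labelled libraries, 172, 165 and 169 CPM in the C-labelled libraries, and 186 and 181 CPM in the controls. Its C-labelled libraries were all below both controls, at -0.12 ± 0.05 (edgeR, adjusted p = 0.629). The gene rrf-3, whose polymerase makes endogenous siRNAs and whose loss enhances exogenous RNAi, averaged 141 ± 6.88 CPM in the A-labelled libraries, 145 ± 5.09 CPM in the C-labelled libraries and 149.96 ± 2.25 CPM in the controls. For ekl-1, a Tudor-domain factor of the germline siRNA pathway, the 3 group means lay between 97.6 and 102 CPM.

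Mutator proteins gather at foci beside germ granules, where secondary siRNAs are amplified. The summed level of the 3 mutator genes was 402, 391 and 412 CPM in the A-labelled libraries, 433, 437 and 441 CPM in the C-labelled libraries, and 442 and 443 CPM in the controls. Most of that gap lay in mut-7 (WBGene00003504, chromosome III, 9539031 to 9542380, reverse strand), which encodes an exonuclease-like protein: 144, 124 and 135 CPM in the A-labelled libraries, 158, 147 and 163 CPM in the C-labelled libraries, and 171 and 156 CPM in the controls. Every A-labelled library was below every other library. The log2 difference was -0.28 ± 0.08 for A-labelled minus control, a change of -17.8% (edgeR, adjusted p = 0.121), and -0.22 ± 0.07 for A-labelled minus C-labelled (edgeR, adjusted p = 0.174 without and 0.0190 with the replicate number as a block). The helicase gene mut-14 had 52.5, 49.1 and 49.9 CPM in the A-labelled libraries, 49.8, 52.7 and 57.4 CPM in the C-labelled libraries, and 58.5 CPM in each control. The controls stood above all 6 RNAi libraries, with -0.17 ± 0.06 for the mean of both RNAi groups minus control (edgeR, adjusted p = 0.294). For mut-16, the scaffold of the foci, the groups overlapped at 217 ± 10.9 CPM in the A-labelled libraries, 228 ± 8.54 CPM in the C-labelled libraries and 220.5 ± 10.9 CPM in the controls.

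The microRNA Argonautes lay higher and the piRNA Argonaute lower in the A-labelled libraries. The gene alg-2 (WBGene00000106, chromosome II, 873212 to 879885, forward strand) had 125, 122 and 115 CPM in the A-labelled libraries, 116, 124 and 104 CPM in the C-labelled libraries, and 94.2 and 97.2 CPM in the controls. All 6 RNAi libraries stood above both controls, with log2 differences from control of 0.33 ± 0.08 in the A-labelled group, a change of 25.99% (edgeR, adjusted p = 0.121), and 0.26 ± 0.08 in the C-labelled group (edgeR, adjusted p = 0.457). Its paralog alg-1 had 74.6, 86.6 and 77.8 CPM in the A-labelled libraries, 71.0, 73.5 and 63.7 CPM in the C-labelled libraries, and 62.9 and 66.7 CPM in the controls. The A-labelled libraries were above all others, at 0.30 ± 0.08 from control (edgeR, adjusted p = 0.121) and 0.20 ± 0.07 from the C-labelled libraries (edgeR, adjusted p = 0.212 without and 0.0467 with the replicate number as a block). For prg-1, the Piwi protein that binds piRNAs in the germline, values were 431, 385 and 443 CPM in the A-labelled libraries, 452, 445 and 503 CPM in the C-labelled libraries, and 512 and 489.8 CPM in the controls. Its A-labelled libraries lay below all others, at -0.26 ± 0.08 from control (edgeR, adjusted p = 0.121).

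Among the other Argonautes of secondary siRNAs, none of the 6 had an unadjusted p under 0.05 in any of the 4 comparisons. The most abundant, wago-1, a germline Argonaute, had 1043, 1084 and 1022 CPM in the A-labelled libraries, 1057, 1065 and 1087 CPM in the C-labelled libraries, and 1069.7 and 1121 CPM in the controls, and its groups overlapped. The Argonaute csr-1, which binds siRNAs against germline-expressed genes, had 503, 594 and 496 CPM in the A-labelled libraries, 469, 488 and 495 CPM in the C-labelled libraries, and 468 and 475 CPM in the controls. The A-labelled libraries stood just above the rest with library 2 farthest out, at a log2 difference from control of 0.17 ± 0.08 (edgeR, adjusted p = 0.209). An exon of csr-1 shares 438 bases, 11.9% of its exon length, with frpr-10 on the same strand, so part of these reads may be counted for either gene. The close copies ppw-1 and sago-2 lay within 0.07 (log2) of control in both groups, and the labels do not say how reads that match both were counted. For ppw-2 the C-labelled libraries spread from 114 to 148 CPM, around controls that were both at 126 CPM. The lowest of the class, sago-1, averaged 58.6 ± 4.41 CPM in the A-labelled libraries, 65.2 ± 2.82 CPM in the C-labelled libraries and 62.4 ± 6.30 CPM in the controls.

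In nuclear RNAi, the germline and the somatic Argonaute lay on opposite sides of the control in the A-labelled libraries. The germline nuclear Argonaute gene hrde-1 (WBGene00007624, chromosome III, 4172337 to 4176159, reverse strand), which carries silencing to offspring, had 956, 950.1 and 987 CPM in the A-labelled libraries, 1050, 1117 and 1112 CPM in the C-labelled libraries, and 1092 and 1204 CPM in the controls. Its A-labelled libraries lay below all others, with -0.25 ± 0.06 from control, a change of -16.003% (edgeR, adjusted p = 0.121), and -0.18 ± 0.05 from the C-labelled libraries (edgeR, adjusted p = 0.162 without and 0.0308 with the replicate number as a block). For C-labelled minus control the log2 difference of hrde-1 was -0.07 ± 0.06 (edgeR, adjusted p = 0.833), and those groups overlapped. The somatic nuclear Argonaute gene nrde-3 (WBGene00019862, chromosome X, 372235 to 376900, forward strand) had 109, 106 and 117 CPM in the A-labelled libraries, 122, 123 and 114 CPM in the C-labelled libraries, and 98.5 and 93.2 CPM in the controls. All 6 RNAi libraries stood above both controls. The log2 difference from control was 0.21 ± 0.06 in the A-labelled group, a change of 15.5% (edgeR, adjusted p = 0.121), and 0.32 ± 0.06 in the C-labelled group, a change of 25.3% (edgeR, adjusted p = 0.203).

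The 3 cofactors that act with these Argonautes at chromatin differed by at most 0.13 (log2) in size from control in either group. The level of nrde-2 was 152 ± 2.62 CPM in the A-labelled libraries, 153 ± 3.52 CPM in the C-labelled libraries and 146 ± 2.07 CPM in the controls, and both RNAi groups stood above the controls, the A-labelled by a log2 difference of 0.06 ± 0.04 and the C-labelled by 0.07 ± 0.04. For nrde-4, values of 154 ± 3.36 CPM in the A-labelled libraries, 161 ± 0.805 CPM in the C-labelled libraries and 162 ± 0.937 CPM in the controls did not overlap in any pair of groups, although the log2 difference of A-labelled minus control was only -0.07 ± 0.04. For C-labelled minus control it was -0.01 (edgeR, adjusted p = 0.963). Those groups all but touched, with log2 deviations of -0.00603 in C-labelled library 2 and -0.00588 in control library 1. The third, nrde-1, averaged 85.7 ± 4.42 CPM in the A-labelled libraries, 92.2 ± 6.42 CPM in the C-labelled libraries and 94.1 ± 4.32 CPM in the controls. Exons of nrde-1 share 3.71% of their length, and those of nrde-4 3.59%, with a gene on the opposite strand, which the library kit does not separate. Smaller overlaps of that kind were found in rde-10 (2.72%), sid-2 (2.63%), rrf-3 (0.669%), ergo-1 (0.465%) and prg-1 (0.450%). For alg-1, 1.43% is shared with a small nucleolar RNA gene on the same strand.

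**Figure D2:**
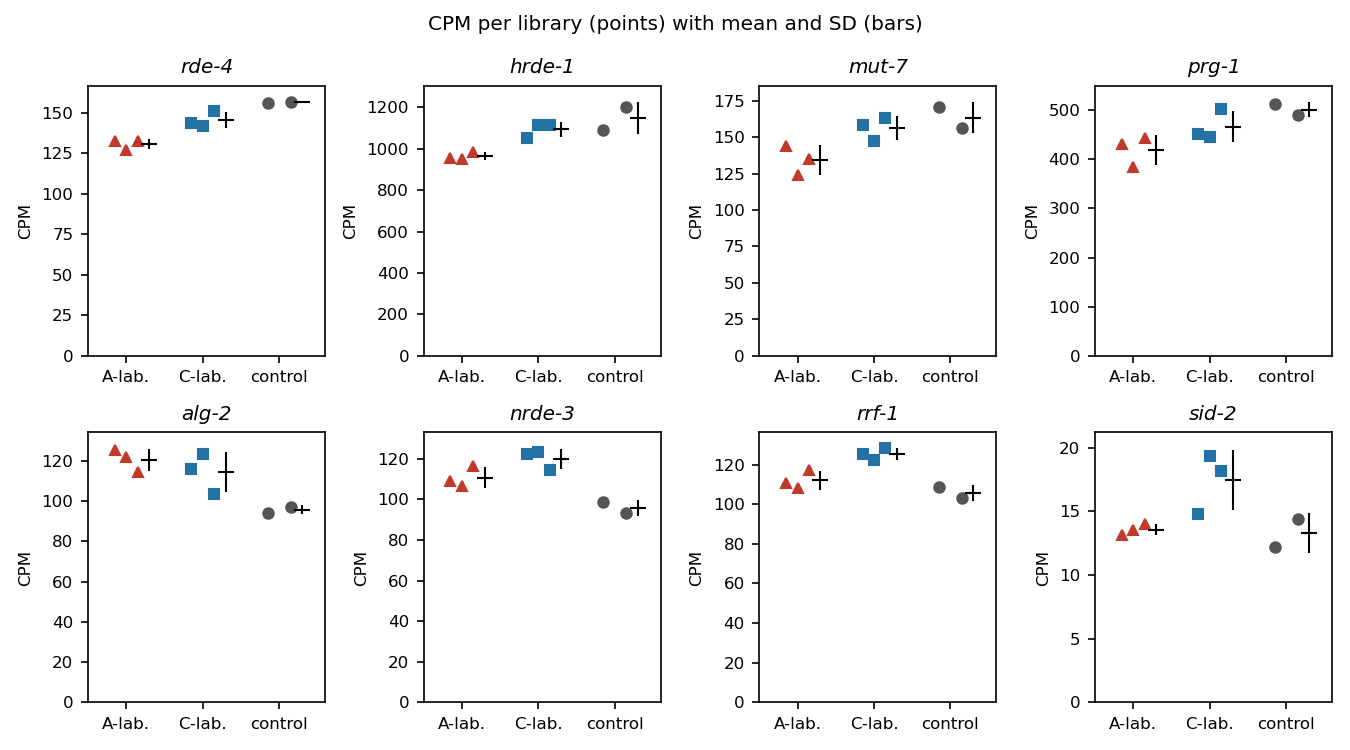
CPM of 8 named genes in each library (points), with the mean and SD of each group beside them (bars), for A-labelled (n = 3), C-labelled (n = 3) and control libraries (n = 2). In the upper row rde-4, hrde-1, mut-7 and prg-1 are lowest in the A-labelled libraries; in the lower row alg-2 and nrde-3 are lowest in the controls and rrf-1 and sid-2 highest in the C-labelled libraries.

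The first comparison set the mean of both RNAi groups against the empty vector in these genes. Both groups are labelled for the same gene, vab-3, so RNAi against any gene cannot be told apart from RNAi against vab-3. This comparison shares its libraries with those of each group that follow. 0 of 33 members passed the threshold, against 8 of all tested genes (0.0542%). The smallest adjusted p of a member was 0.262 (edgeR), for nrde-3 at a log2 difference of 0.27 ± 0.05, followed by rde-4 at -0.18 ± 0.04 and alg-2 at 0.30 ± 0.07. At an unadjusted p under 0.05, 12 of 33 members stood out (36.4%, 5 higher and 7 lower), where 14.9% of all genes did, 6.86% higher and 8.04% lower. Such shares, here and in the comparisons below, are not matched for depth. The median SE was 0.056 for members and 0.161 for all genes (log2), so smaller differences could reach that p in members. A higher share is therefore no result about the members. The median was -0.01 (log2) for members and 0.01 for all genes, and 15 members lay higher and 18 lower. Among all genes 7629 lay higher and 7143 lower. All 6 RNAi libraries stood above both controls in dcr-1, alg-2, nrde-3 and nrde-2 and below them in rde-4, rde-11, mut-14 and nrde-4, that is 4 members in each direction, where 7.17% of all genes lay above and 8.68% below without overlap. For nrde-4 C-labelled and control libraries all but touched. With DESeq2, 2 members passed, alg-2 (adjusted p = 0.0238) and nrde-3 (adjusted p = 0.0156), both higher, beside 226 genes in all (1.53%, with 1.35% higher).

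In the A-labelled libraries most members lay lower than in control, again with 0 of 33 past the threshold. No gene of the 14772 passed with edgeR (0%), while 3840 had an unadjusted p under 0.05 and DESeq2 called 1128 (7.64%, with 5.24% higher and 2.4% lower). Of the members, 11 of 33 had an unadjusted p under 0.05 (33.3%, 3 higher and 8 lower), against 26% of all genes, 13.7% higher and 12.3% lower. The median log2 difference was -0.06 for members and 0.03 for all genes, with 11 members higher and 22 lower. Among all genes 8046 lay higher and 6726 lower. A-labelled libraries lay above both controls without overlap in 6 members, namely dcr-1, alg-1, alg-2, csr-1, nrde-3 and nrde-2, where 21.5% of all genes did. They lay below in 13 members, namely sid-1, rde-4, eri-1, rde-8, rde-11, rrf-3, mut-7, mut-14, prg-1, ppw-2, hrde-1, nrde-1 and nrde-4, where 22.2% of all genes did. For sid-1 the groups all but touched, with log2 deviations of -0.0337 in A-labelled library 1 and -0.0329 in control library 1. DESeq2 called 6 members, alg-1 (adjusted p = 0.0392) and alg-2 (adjusted p = 0.0153) higher and rde-4 (adjusted p = 0.00260), hrde-1 (adjusted p = 0.00435), mut-7 (adjusted p = 0.0367) and prg-1 (adjusted p = 0.0479) lower.

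The edgeR count of this comparison depended on the libraries and the fit. Without A-labelled library 1, 1303 genes passed (8.85%, with 6.47% higher and 2.38% lower), and 3 members did: alg-1 at a log2 difference of 0.34, mut-7 at -0.34 and rde-4 at -0.27. Without A-labelled libraries 2 and 3, which stood apart on the first principal component, no gene passed. The difference that A-labelled library 1 then showed alone from the controls, with its spread taken from the other groups, was -0.22 for rde-4, -0.25 for hrde-1, -0.17 for mut-7, -0.20 for prg-1, 0.22 for alg-1, 0.41 for alg-2 and 0.20 for nrde-3 (log2). All 7 are among the members whose 3 A-labelled libraries did not overlap the controls. Their direction in library 1 was therefore known beforehand, and it is no separate check. With the replicate number as a block, 546 genes passed (3.7%, with 2.56% higher and 1.14% lower) and 4 members did, alg-2 higher and rde-4, mut-7 and hrde-1 lower, although the controls share only numbers 1 and 3 with the A-labelled libraries.

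For C-labelled minus control, 0 of 33 members passed, against 14 of all genes (0.0948%). The smallest member p belonged to nrde-3, then rrf-1 and alg-2. At an unadjusted p under 0.05, 6 members stood out (18.2%), with sid-2, drh-3, rrf-1, alg-2 and nrde-3 higher and ego-1 lower, against 7.34% of all genes, 4.32% higher and 3.02% lower. The median log2 difference was 0.03 for members and -0.01 for all genes, with 18 members higher and 15 lower. Among all genes 6872 lay higher and 7900 lower. The members' median came to -0.003 without control library 1 and to -0.002 without control library 3, so its sign rested on having both. All 3 C-labelled libraries stood above both controls in 8 members (sid-2, dcr-1, drh-3, ergo-1, rrf-1, alg-2, nrde-3 and nrde-2), where 12.7% of all genes did, and below them in 5 (rde-4, rde-11, ego-1, mut-14 and nrde-4), where 15.5% did. For nrde-4 the gap was close to none. DESeq2 called nrde-3 (adjusted p = 0.00417) and rrf-1 (adjusted p = 0.0363), both higher, beside 158 genes in all (1.07%, with 0.853% higher).

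Between the RNAi groups, 28 of 33 members lay lower in the A-labelled than in the C-labelled libraries and 5 higher, with a median log2 difference of -0.08, against 0.02 for all genes. Among all genes 6797 lay lower and 7975 higher. The 62 other genes of the pathways, described below, leaned the same way as the members, with 42 lower and 20 higher. 0 members passed, and 6 of all genes did (0.0406%). An unadjusted p under 0.05 was reached by 10 members (30.3%, 1 higher and 9 lower), against 19.2% of all genes, 11.6% higher and 7.59% lower. All A-labelled libraries lay below all C-labelled ones in 12 members (sid-1, sid-2, rde-4, ergo-1, rde-10, rrf-1, ekl-1, mut-7, prg-1, sago-1, hrde-1 and nrde-4), where 11.2% of all genes did, and above them in alg-1 and csr-1, where 12.7% did. Deviations of same-numbered A-labelled and C-labelled libraries correlated at 0.61, 0.43 and 0.22 across genes, but libraries of different numbers were not compared. With the replicate number as a block, which may be too favourable because it was taken up on the data alone, 6 members passed beside 1702 genes (11.5%, with 7.67% higher and 3.85% lower). They were alg-1 higher (edgeR, adjusted p = 0.0467) and mut-7 (adjusted p = 0.0190), hrde-1 (adjusted p = 0.0308), rde-4 (adjusted p = 0.0347), sid-2 (adjusted p = 0.0394) and rrf-1 (adjusted p = 0.0447) lower in the A-labelled libraries. DESeq2 without the block called hrde-1 only among the members (adjusted p = 0.0221), beside 663 genes in all (4.49%, with 0.711% lower). Without A-labelled library 1, 748 genes passed and no member did.

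**Figure D3:**
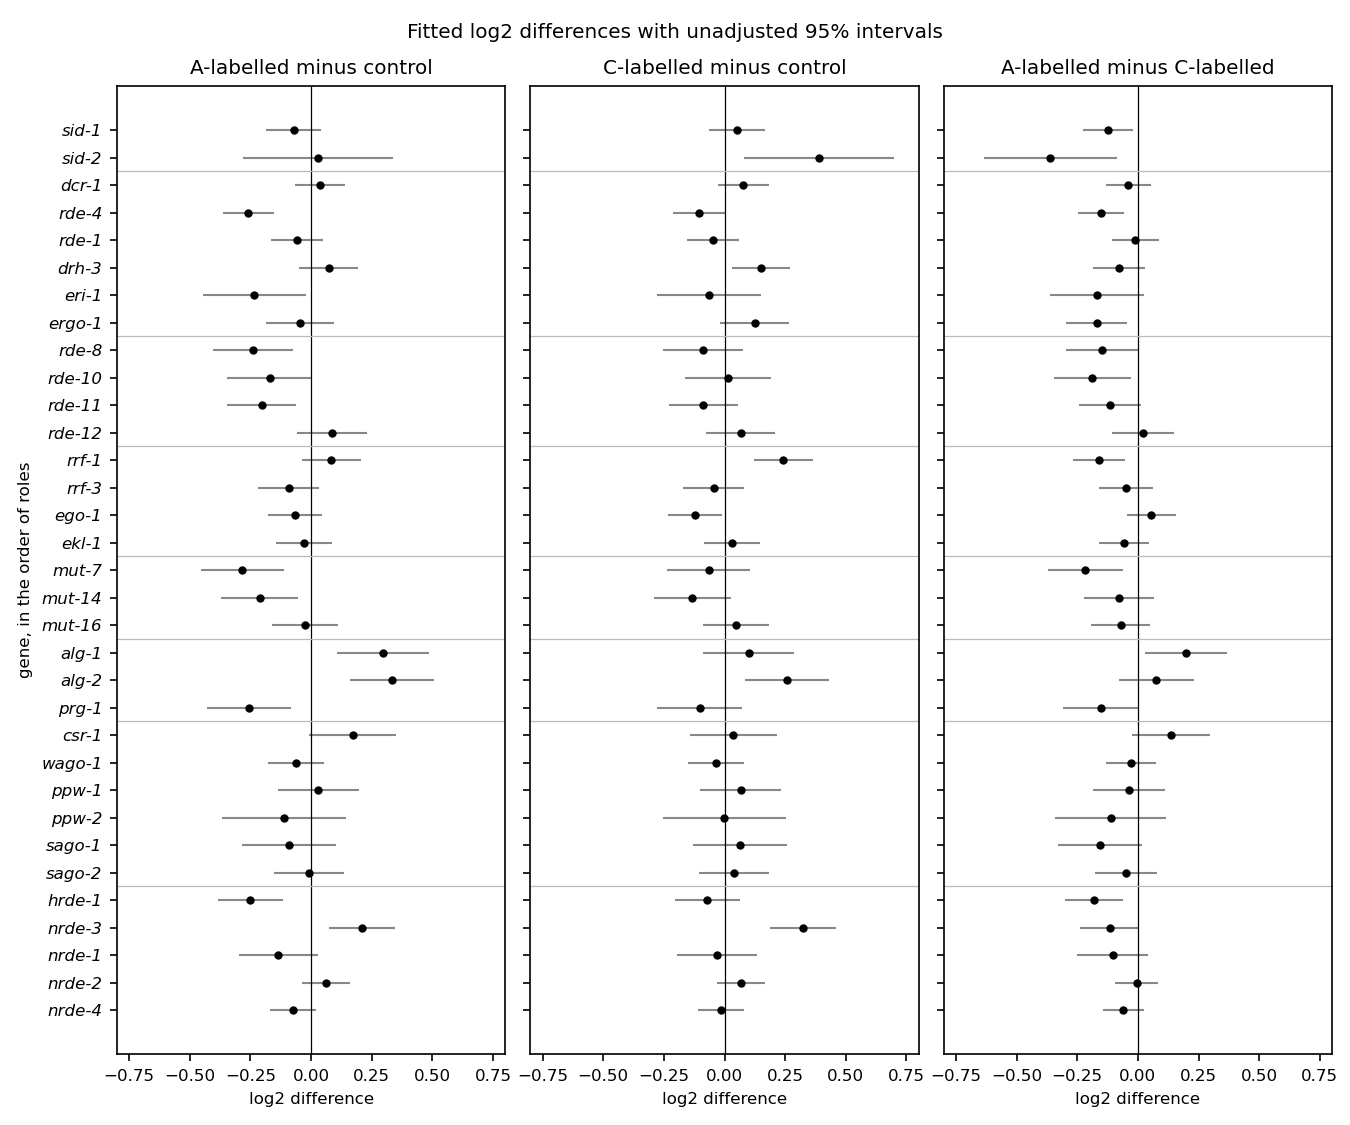
Fitted log2 difference (points) and unadjusted 95% interval (lines) of each of the 33 genes in 3 comparisons, A-labelled minus control, C-labelled minus control and A-labelled minus C-labelled, with grey lines between roles. No interval reaches beyond -0.64 or 0.70, and 28 points of the right panel lie left of 0.

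These intervals set how large a difference the libraries leave room for. Over all 33 members they ran from -0.45 to 0.51 for A-labelled minus control, from -0.29 to 0.70 for C-labelled minus control and from -0.64 to 0.37 for A-labelled minus C-labelled (log2, unadjusted 95% intervals), and the upper end of 0.70 and the lower end of -0.64 both belonged to sid-2, the least counted member.

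Fitted levels of tissue markers also differed between the groups. For A-labelled minus control no gene of any list passed the threshold. None of all 14772 genes did (0%), so that outcome says nothing of the markers. Of 25 germline and oocyte markers, 20 lay lower in the A-labelled and 21 lower in the C-labelled libraries than in control, and none passed the test. Their summed level was 20338 to 20384 CPM in the A-labelled libraries, 20767 to 21120 CPM in the C-labelled libraries, and 21427 to 21533 CPM in the controls. All 10 body wall muscle markers lay higher in both RNAi groups than in control, with median log2 differences of 1.09 in the A-labelled and 0.25 in the C-labelled libraries and summed levels of 1458 to 2668 CPM in the A-labelled libraries, 931 to 1341 CPM in the C-labelled libraries, and 848 to 1024 CPM in the controls. The 10 neuron markers had a median of 0.57 in the A-labelled and 0.23 in the C-labelled libraries, and the 10 intestine markers 0.33 in the A-labelled and 0.08 in the C-labelled libraries. Per library, the neuron medians of the RNAi libraries (0.15 to 0.89, log2 from the control mean) lay above those of the controls (-0.03 and 0.03). The intestine medians were -0.05, 0.68 and 0.24 in the A-labelled and -0.17, 0.33 and 0.17 in the C-labelled libraries. They overlapped the controls, at -0.23 and 0.23. The 10 epidermis and cuticle markers lay far apart in the groups, with medians of 2.53 in the A-labelled and -0.53 in the C-labelled libraries, and within the A-labelled group at 0.47 in library 1 against 2.76 and 2.75 in libraries 2 and 3. No marker of these 5 lists was at 0 in any library, and 5 of 10 sperm markers were too low to be tested. Their part in the members' differences was not tested.

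Per length, the Argonautes of the germline led the set. Levels are the deposited RPKM (reads scaled to gene length and library total), as the mean ± SD over the 8 libraries. The order opened with wago-1 at 349 ± 8.80, hrde-1 at 299 ± 25.9, prg-1 at 171 ± 17.8, ergo-1 at 166 ± 12.5, csr-1 at 140.2 ± 9.06 and rde-4 at 118 ± 10.3 RPKM. It closed with rrf-1 at 23.0 ± 1.98, sago-1 at 20.2 ± 1.90, alg-1 at 14.5 ± 1.41 and sid-2 at 14.5 ± 2.34 RPKM, so that the span was 24.2-fold. In between, ppw-1 (93.4), rde-8 (81.3), rde-12 (76.5) and nrde-4 (63.0 RPKM) stood above the other members, dcr-1 lay at 39.3, sid-1 at 37.7, rde-1 at 34.8, alg-2 at 34.5, ego-1 at 33.5 and nrde-3 at 32.1 RPKM. Every member lay above the median tested gene, between the 58.8th and the 98.2nd percentile. Of the 32 neighbours in the order, 25 had ranges over the 8 libraries that overlapped, so their order is not settled, and 7 did not. Those 7 steps were from wago-1 to hrde-1, hrde-1 to prg-1, csr-1 to rde-4, rde-4 to ppw-1, rde-12 to nrde-4, sago-2 to dcr-1 and sago-1 to alg-1.

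**Figure D4:**
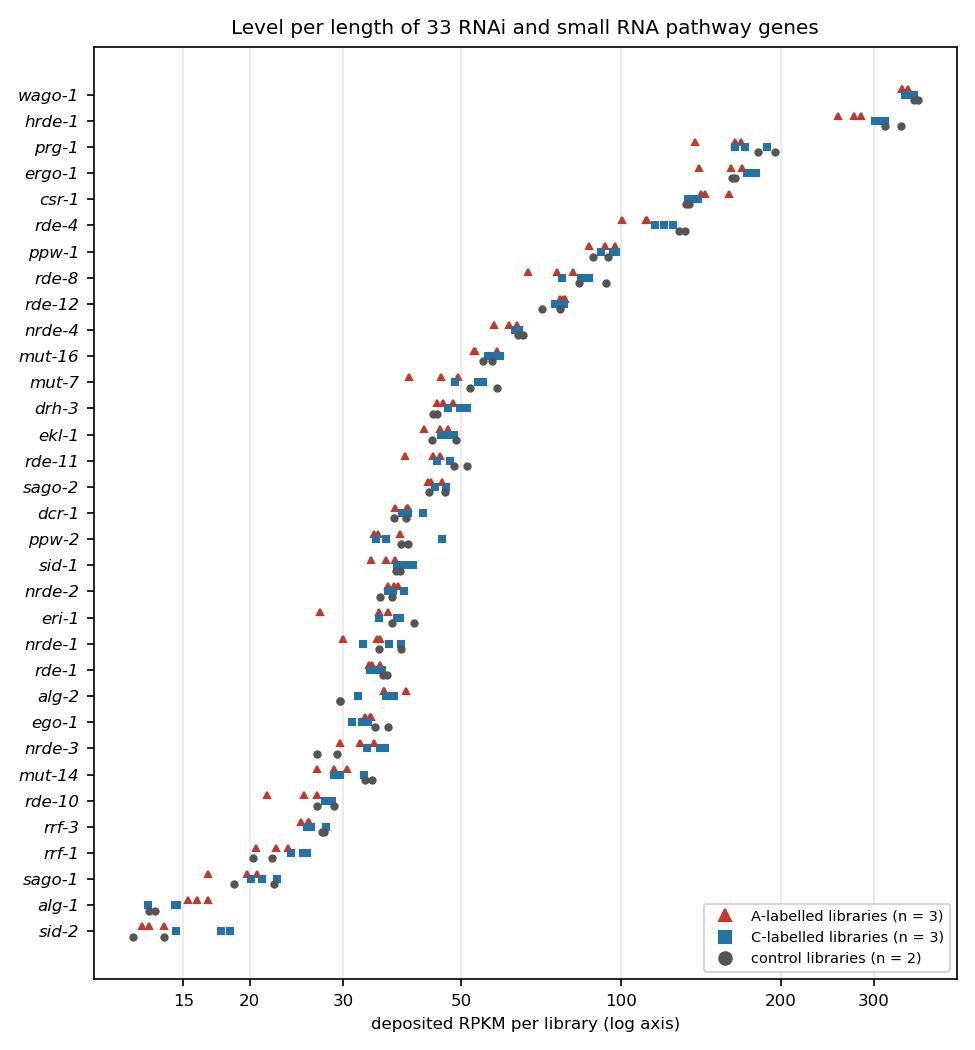
Deposited RPKM of the 33 genes (rows, from the highest to the lowest mean) in each library on a log axis, for A-labelled, C-labelled and control libraries. wago-1 and hrde-1 lie above all other genes in every library, and most genes between 30 and 60 RPKM overlap their neighbours.

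Within a library, a ratio of members does not depend on how the library was scaled. The 4 pairs that follow were chosen after their values were seen, so they are a description with no test, and they are ratios of CPM, which are compared between libraries and say nothing of relative levels per length. The somatic over the germline nuclear Argonaute, nrde-3 over hrde-1, was 11.4, 11.2 and 11.8% in the A-labelled libraries, 11.7, 11.04 and 10.3% in the C-labelled libraries, and 9.02 and 7.74% in the controls. Every RNAi library was above both controls, and the 2 RNAi groups overlapped. For the somatic over the germline polymerase, rrf-1 over ego-1, the ratio was 63.98, 59.01 and 69.1% in the A-labelled libraries, 72.7, 74.2 and 75.9% in the C-labelled libraries, and 58.5 and 56.8% in the controls, which set the C-labelled libraries apart from the rest. The microRNA over the piRNA Argonaute, alg-2 over prg-1, averaged 28.9 ± 2.90% in the A-labelled libraries, 24.7 ± 3.65% in the C-labelled libraries and 19.1 ± 1.03% in the controls. The paralog over the same gene, alg-1 over prg-1, averaged 19.1 ± 2.93% in the A-labelled libraries, 14.96 ± 2.03% in the C-labelled libraries and 12.95 ± 0.939% in the controls, where C-labelled library 3 at 12.7% overlapped the controls.

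**Figure D5:**
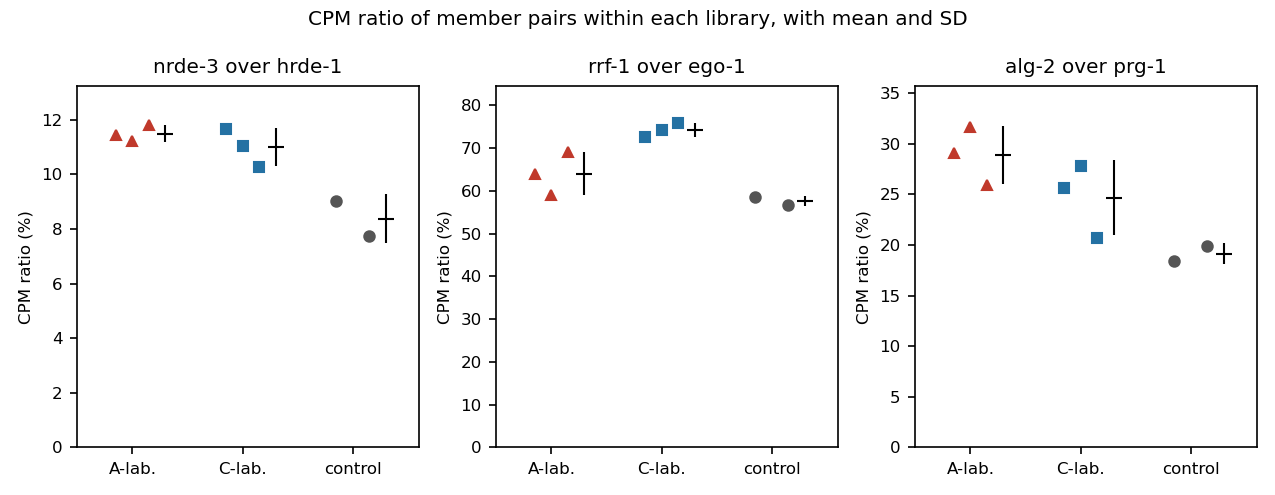
Ratio of CPM within each library (percent, points) with the mean and SD of each group (bars) for nrde-3 over hrde-1, rrf-1 over ego-1 and alg-2 over prg-1, in A-labelled (n = 3), C-labelled (n = 3) and control libraries (n = 2). In the left and the right panel all 6 RNAi libraries lie above both controls, and in the middle panel the 3 C-labelled libraries lie above all others.

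Of other genes of the pathways, 64 names were listed and 62 were matched and tested, and cde-1, one of the unmatched names, may be another name of cid-1, which is among the 62. 0 of 62 passed the threshold in any comparison. The A-labelled libraries lay lower than control in 40 of them and higher in 22, with a median log2 difference of -0.05, against 35 lower and 27 higher in the C-labelled libraries, with a median of -0.01. At an unadjusted p under 0.05, 21 lay lower and 3 higher in the A-labelled libraries, where 12.3% of all genes lay lower and 13.7% higher. In the C-labelled libraries 0 lay lower and 3 higher (4.84% in all), where 3.02% of all genes lay lower and 4.32% higher. All 10 piRNA genes tested, factors of piRNA transcription and processing, lay lower in the A-labelled libraries than in both controls without overlap, where 22.2% of all genes did, with a median of -0.20. All 6 further mutator genes also had lower fitted levels there, with a median of -0.25. Without overlap with the controls were 5 of the 6, again beside 22.2% of all genes. In the C-labelled libraries, 9 of 10 piRNA genes and 5 of 6 further mutator genes also had lower fitted levels, each with a median of -0.07. Other lists were mixed in the A-labelled libraries: 6 of 9 genes of microRNA function and RNA turnover lay higher, with a median of 0.06, as did 5 of 9 further Argonautes, with a median of 0.08, and 3 of 5 further uptake and spreading genes, with a median of 0.01. Lower fitted levels were found in 7 of 8 Dicer partners and ERI genes, with a median of -0.08, in 6 of 10 genes of nuclear silencing and inheritance, with a median of -0.04, and in 2 of 4 genes of small RNA end modification, with a median of -0.02. The 1 further polymerase gene lay higher at 0.21.

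By smallest p, the further genes to name were xrn-1, tofu-6 and alg-5 for A-labelled minus control. The 5'-to-3' exonuclease gene xrn-1, which degrades decapped messenger RNA, had 157, 158 and 162 CPM in the A-labelled libraries, 152, 166 and 153 CPM in the C-labelled libraries, and 130.2 and 138 CPM in the controls. All 6 RNAi libraries were above both controls, at 0.25 ± 0.06 in the A-labelled group (edgeR, adjusted p = 0.121) and 0.23 ± 0.06 in the C-labelled group (edgeR, adjusted p = 0.350). The piRNA biogenesis gene tofu-6 and the germline microRNA Argonaute gene alg-5 lay lower in the A-labelled group, with -0.21 ± 0.06 from control for tofu-6 and -0.22 ± 0.06 for alg-5. For the mean of both RNAi groups minus control the first 3 were xrn-1 at 0.24 ± 0.05, cid-1 at 0.14 ± 0.04 and alg-5 at -0.16 ± 0.06. In the C-labelled libraries, beside xrn-1, they were cid-1, a nucleotidyltransferase gene, at 0.18 ± 0.04, and morc-1, a germline chromatin factor gene, at 0.13 ± 0.06 from control. Between the RNAi groups they were ain-1, a partner of the microRNA Argonautes, at 0.27 ± 0.07, drsh-1, the Drosha gene of microRNA processing, at -0.19 ± 0.05, and smut-1, a mutator gene, at -0.23 ± 0.07 for A-labelled minus C-labelled, the smallest adjusted p being 0.137 (edgeR) for ain-1.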

How the data were processed

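Per the labels' protocols, RNA of whole worms was extracted with QIAzol and sequenced from TruSeq RNA v2 libraries, a kit without strand information. The submitters' processing notes name TopHat2 2.1.0, featureCounts 1.5.0, bcl2fastq 1.8.4 and build WBcel235. Annotation release, read filters and the handling of multi-mapped reads were not given in the sources used here. The authors deposited counts per gene as whole numbers, an RPM table that equals each count scaled by its column total, and an RPKM table scaled by gene length. The deposited RPM and RPKM values entered no test.

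The expression filter of edgeR, applied by group, left 14772 of 46739 genes with at least 99.9% of counts. Counts were fitted with edgeR 4.0.16 in R 4.3.3 (TMM, robust quasi-likelihood F test) with all 8 libraries and 3 groups in the model, for 4 comparisons, two-sided p-values and Benjamini-Hochberg adjustment over all tested genes in each. SE is the size of the log2 difference over the square root of F. Intervals are unadjusted 95% intervals with edgeR's total degrees of freedom. CPM values use TMM-scaled library sizes. Alternatives were DESeq2 1.42.0, RLE factors, limma-voom (limma 3.58.1), no filter, the replicate number as a block, the compared groups alone, leaving out each library, and leaving out A-labelled libraries 2 and 3.

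Groups and replicate numbers came from titles and treatment labels. Replicate pairs differed by more than sampling noise (chi-square per degree of freedom of at least 17.9), so none was merged. Deviations of same-numbered A-labelled and C-labelled libraries correlated at 0.61, 0.43 and 0.22 across genes for numbers 1, 2 and 3. For numbers 1 and 3, C-labelled and control libraries correlated at 0.32 and 0.20, and A-labelled and control libraries at 0.22 and 0.03. Libraries of different numbers were not compared, so these values do not establish a pairing. The block was taken up on the data alone, the labels being silent on what the numbers mean. The controls share only numbers 1 and 3. The main fit held no block, and the alternative with a block applied the numbers to all 8 libraries, controls included.

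The members, the gene lists and the marker lists were chosen with earlier results of these data known. All 33 members are named, and of the other pathway genes the 3 of smallest p in each comparison. Of the 64 others, 62 were matched, 4 of them through a reference name table. Coordinates and exon overlaps come from the Ensembl annotation of WBcel235. No sequences are printed.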

Additional observations from a re-analysis of the deposited data

How the results depend on the processing

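The counts of calls depended on the choices. For the mean of both RNAi groups minus control, A-labelled minus control, C-labelled minus control and A-labelled minus C-labelled, in that order, DESeq2 called 226, 1128, 158 and 663 genes and 2, 6, 2 and 1 members, where edgeR called 8, 0, 14 and 6 genes and 0 members. Without a filter on low counts, 23, 8, 21 and 12 genes passed. limma-voom called 4, 0, 13 and 5 genes. With only the compared groups in the fit, the counts were 0 for A-labelled minus control, 23 for C-labelled minus control and 1 between the RNAi groups. Without A-labelled libraries 2 and 3 they were 0, 0, 25 and 4. Leaving out 1 library at a time gave 0 to 14, 0 to 1303, 1 to 15 and 1 to 748 genes, and 0, 0 to 3, 0 and 0 members. The cause of these shifts was not tested.

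With the replicate number as a block, 83, 546, 102 and 1702 genes passed and 0, 4, 0 and 6 members, the 4 being alg-2 higher and hrde-1, mut-7 and rde-4 lower in the A-labelled libraries than in control. Libraries of different numbers were not compared, so no pairing is established, and the controls share only 2 numbers with each RNAi group.

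The members' median stayed between -0.0440 and 0.00850, -0.0843 and -0.0448, -0.00303 and 0.0445, and -0.127 and -0.0722 (log2) when single libraries were left out, so its sign held for A-labelled minus control and between the RNAi groups. Between the RNAi groups it was -0.10 with DESeq2 and -0.10 with RLE factors. No called value of a named gene turned its direction under the alternatives run. As no named gene was called in the main fit, this covers only values called under an alternative and is no test of stability. Over all alternatives, 26, 26, 20 and 28 of 33 members kept their sign, and 2, 6, 2 and 6 were called in at least 1. Single alternatives called up to 1702 of all genes (11.5%, between the RNAi groups with the block). The matching shares of all genes over all alternatives were not computed, so these counts are no result about the members. Other scaling moved the median of all genes by at most 0.018 in size.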

Other observations

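Argonautes of sperm development were among the other pathway genes and had few counts. These 3 genes were chosen after their values were seen. The sperm Argonaute gene alg-3 had 0.403, 2.21 and 5.23 CPM in the A-labelled libraries, 0.328, 1.27 and 0.749 CPM in the C-labelled libraries, and 0.403 and 0.199 CPM in the controls. Its paralog alg-4 had 0.316, 1.97 and 5.87 CPM in the A-labelled libraries, 0.358, 1.27 and 0.432 CPM in the C-labelled libraries, and 0.483 and 0.398 CPM in the controls. For wago-10 the values were 0.259, 0.690 and 2.21 CPM in the A-labelled libraries, 0.358, 0.937 and 0.374 CPM in the C-labelled libraries, and 0.376 and 0.232 CPM in the controls. In all 3 genes A-labelled library 3 was highest, and A-labelled library 2 and C-labelled library 2 lay above both controls, while A-labelled library 1 held only 14 counts of alg-3, 11 of alg-4 and 9 of wago-10. None passed the test, with log2 differences from control of 3.08 ± 1.13, 2.62 ± 1.19 and 1.78 ± 0.92 in the A-labelled group. The 5 sperm markers that could be tested summed to 18.8, 17.3 and 26.1 CPM in the A-labelled libraries, 20.7, 23.4 and 21.4 CPM in the C-labelled libraries, and 18.2 and 18.9 CPM in the controls, with A-labelled library 3 again the highest.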
